A study of Mus musculus with 8 samples.

Results

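The cells described here were Siglec-F type tumor neutrophils, 608 of the 3894 cell barcodes that had at least 200 genes detected, or 15.6% of them. The members were chosen by their measured transcripts, counted as unique molecular identifiers (UMIs). A barcode belonged if it had at least 2 UMIs over the neutrophil genes Csf3r, G0s2, Clec4d and Cxcr2, at least 2 UMIs over the tumor neutrophil genes Siglec5, Ffar2, Entpd3, Rab15, Tarm1, Gpr84 and Il23a, more of the latter than UMIs of the mature-type genes Retnlg, Asprv1, Hdc, Trpm2 and Lcn2, and no UMI of the complement genes C1qa, C1qb and C1qc. Siglec5 is the older symbol of Siglecf in the deposited tables. The members were set beside 676 barcodes with the same minimum of neutrophil UMIs but more mature-type than tumor-type UMIs, called R>T barcodes below, and beside all 3286 other barcodes. The R>T barcodes were not filtered on the complement genes, and 19 of them had a C1q UMI. Differences from them in macrophage transcripts are therefore partly built in by the rule. Of the members, 579 (95.2%) came from Tumor 1 and 29 from Tumor 2.

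Neutrophils are short-lived granulocytes that leave the bone marrow with preformed granules and receptors for bacterial products and chemokines. In mouse lung tumors a part of them persists, takes up Siglec-F, a sialic acid-binding inhibitory lectin otherwise known from eosinophils and alveolar macrophages, and expresses genes of angiogenesis, matrix breakdown and inflammatory cytokines. When a neutrophil senses a stimulus through Toll-like receptors or tumor necrosis factor receptors, NF-kB moves to the nucleus and drives a rapid first wave of cytokine genes together with genes for its own inhibitors.

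The libraries came from a study in which a caged calcein dye was uncaged by light in a chosen region of a tumor slice, so that living cells of that region could be sorted and sequenced. Each tumor was a large lung tumor of a KP mouse, which carries p53 fl/fl, a chimera made by injecting embryonic stem cells of C57BL/6 background into blastocysts of albino C57BL/6 mice, and tumors were started at 12 weeks of age with intratracheal Adeno-SPC-Cre, in which the surfactant protein C promoter confines Cre to alveolar type II cells. Tumors were taken 16 weeks later from 1 male and 1 female mouse, and the labels do not say which tumor came from which. For each tumor, photoactivated cells of the Healthy/Tumor Border (hereafter Border) filled 1 Seq-Well array and cells of the Whole Tumor, which were not photoactivated, filled 3 technical arrays. All groups shared the genotype, the virus and the age. Photoactivation with its sort and the place in the tumor cannot be told apart in this design, and each tumor was 1 mouse, so every spread and p-value given here covers technical arrays and not mice.

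In all 8 tables, the names of the cells carried the number of the other tumor. The groups here follow the sample labels, under which the tables held 686 Border and 1634 Whole Tumor barcodes for Tumor 1 and 534 and 1489 for Tumor 2. The cell numbers by tumor in the study's methods follow the labels too, not the cell names. Xist, the transcript that silences an X chromosome in female cells, stood at 431 to 615 CPM (UMIs of a gene per 1000000 UMIs of the summed members) in the 4 Tumor 1 libraries and had no UMI in the members of any Tumor 2 library, so the libraries of each label held together. Ddx3y, a gene of the Y chromosome, had a UMI in 0.518% of the Tumor 1 members and 34.5% of the Tumor 2 members. By these 2 genes the members had a female pattern in Tumor 1 and a male one in Tumor 2. The libraries totalled 405627 to 2029200 UMIs. Members had a median of 2690.5 UMIs and 1057 genes, against 1921.5 UMIs and 667.5 genes in R>T barcodes and 1650.0 UMIs and 633.5 genes in all other barcodes, and mitochondrial transcripts took a median of 3.38%, 3.72% and 5.09% of UMIs. Scrublet called 57 of all barcodes doublets (1.46%), 8 of them members. Barcode sequences present in more than 1 library numbered 10, all with a primer-like run, and 2 of these barcodes were members.

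Siglec5 itself, on chromosome 7 (GRCm38.p6, chr7:43351341-43359475), reached 194 CPM in the members of the Tumor 1 Border library and 554, 409 and 448 CPM in those of the Whole Tumor arrays 1, 2 and 3. Its Border level was thus below every array. Ffar2 (chr7:30818031-30823775), the receptor for short-chain fatty acids, showed the same order, with 164 CPM in the Border against 372, 406 and 366 CPM. Entpd3 (chr9:120539818-120568327), an ectonucleotidase that breaks down extracellular ATP, was even, with 391 CPM in the Border and 425, 404 and 356 CPM in the arrays. Tarm1 (chr7:3486499-3502754), an activating receptor of myeloid cells, also varied little, with 650 CPM against 607, 570 and 479 CPM. Rab15 (chr12:76797960-76822759), a small GTPase of endosome recycling, spanned 144 to 345 CPM, with the Border highest. The remaining genes were higher in the Border. Gpr84 (chr15:103308233-103310670), a receptor for medium-chain fatty acids, had 466 CPM there and 275, 220 and 209 CPM in the arrays. Il23a (chr10:128296140-128298084), which encodes the p19 subunit of interleukin-23, had 960 CPM against 177, 159 and 339 CPM. Since these genes chose the members, their levels are a description and were not tested.

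Among the general neutrophil genes of the rule, Csf3r (chr4:126023441-126044975), the receptor of the growth factor G-CSF, was at 1078 CPM in the Border members of Tumor 1 and 881, 988 and 729 CPM in the arrays. Clec4d, a C-type lectin of myeloid cells, had 1254 CPM against 669, 698 and 678 CPM. Cxcr2, the receptor through which neutrophils follow CXC chemokines, went the other way, with 171 CPM against 416, 380 and 681 CPM, and so did G0s2, an inhibitor of fat breakdown, with 488 CPM against 624, 737 and 715 CPM. Of the mature-type genes, Hdc, the enzyme that makes histamine, kept 267 CPM in the Border and 297, 183 and 253 CPM in the arrays, while Lcn2, an iron-scavenging granule protein, had 93.9 CPM against 0, 39.6 and 24.0 CPM. In the 29 Tumor 2 members, Siglec5 was at 499 CPM in the Border and 315, 369 and 345 CPM in the arrays, and Rab15 and Gpr84 had no UMI in any of the 3 arrays.

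Counted as the share of barcodes with at least 1 UMI, Csf3r was found in 84.6% of the Tumor 1 members and 75.4% of the Tumor 1 R>T barcodes. Tarm1 was found in 59.1% against 23.6%, Entpd3 in 55.1% against 13.9% and Siglec5 in 40.6% against 10.8%. Ffar2 was found in 33.3% against 14.4%, Rab15 in 30.2% against 6.15%, Gpr84 in 33.5% against 11.3% and Il23a in 28.5% against 14.9%. As a background for free RNA, 43 lymphoid barcodes of Tumor 1 with a median of 3835 UMIs had a UMI of Tarm1 in 2.3%, of Entpd3 in 2.3%, of Siglec5 in 4.7%, of Ffar2 in 9.3%, of Rab15 in 6.98%, of Gpr84, Il23a and Lcn2 in 2.33% each, of Csf3r in 6.98% and of Hdc in 9.30%, at median depths of 2692 UMIs in the members and 2097 UMIs in the R>T barcodes. The Rab15 share of the R>T barcodes was below that of these deeper lymphoid barcodes. Among barcodes with at least 1000 UMIs, each thinned to 1000, it was 5.20% of 173 against 0 of 40 lymphoid barcodes. Its standing against the background thus depended on depth. Hdc was found in 30.2% of members against 67.2% of R>T barcodes, and Lcn2 in 6.0% against 40.0%. The split between Border and Whole Tumor followed the levels, with Siglec5 in 25.4% of Border and 50.1% of Whole Tumor members of Tumor 1 and Il23a in 46.4% and 17.2%.

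**Figure D1:**
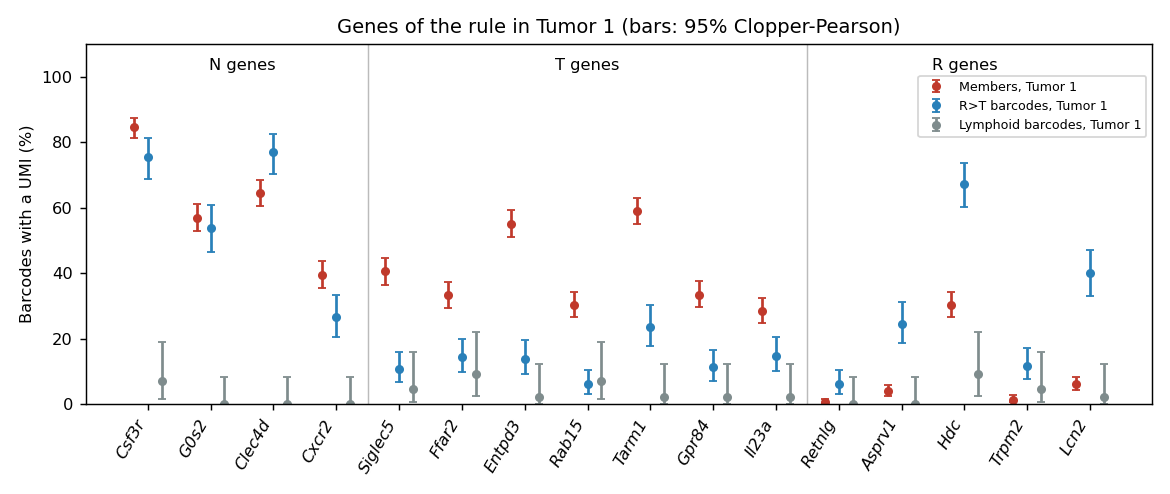
Share of barcodes with at least 1 UMI (percent, vertical axis) of each gene of the rule (horizontal axis) in members, R>T barcodes and lymphoid barcodes of Tumor 1, with exact 95% intervals as bars. Csf3r lies at 84.6% in members and 75.4% in R>T barcodes, whereas Siglec5 lies at 40.6% and 10.8%, a separation made by the rule itself.

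The members were not alike in how they met the rule. Their UMIs ran from 494 to 12952 and their genes from 259 to 3708. The summed tumor-type UMIs had a median of 6 and a maximum of 65, and 373 members (61.4%) had no mature-type UMI at all. A median of 3 of the 7 tumor-type genes was detected per member. In 94 members (15.5%) a sole tumor-type gene carried the whole sum, and 327 members (53.8%) had 3 or more. On both sides of each threshold barcodes carried S100a9, a calcium-binding alarmin of neutrophils that the rule did not use. The 73 members with 2 tumor-type UMIs had 3179 CPM of S100a9, and the 95 barcodes left out with 1 had 3968 CPM. Likewise the 68 members with 2 neutrophil UMIs had 2610 CPM and the 54 left out with 1 had 2578 CPM, and the 28 members with a lead of 1 tumor-type UMI had 2812 CPM against 3694 CPM in 26 tied barcodes. Mmp9, a granule gelatinase, was at 526.5 CPM inside and 524.2 CPM outside the first of these thresholds, 523.4 and 256 CPM at the second and 973 and 502 CPM at the third. The 18 barcodes removed for a C1q UMI differed, with 147 CPM of S100a9 and a median of 7356.5 UMIs.

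Neutrophil markers outside the rule were present in the members. The list of 18 further neutrophil genes, of which 17 had a UMI, summed to 125 per 10000 UMIs in the members (144 in the Tumor 1 Border library and 121, 101 and 140 in the arrays). It summed to 239 in R>T barcodes, most of them of Tumor 2, and to 163 in those of Tumor 1. In all other barcodes it summed to 71.0, but in the Tumor 1 Border library to 125, close to the 144 of the members there. S100a9 was found in 64.5% and S100a8, its partner in calprotectin, in 44.4% of all members. Ly6g, the surface protein by which mouse neutrophils are usually sorted, had no UMI in any member. It had none in the R>T barcodes of Tumor 1 either, so its absence is not particular to the members. Of the cell types that also carry Siglec-F, eosinophils were nearly absent by their genes, which summed to 0.0886 per 10000 UMIs with Prg3 and Il5ra at 0. The alveolar macrophage list summed to 3.79 to 7.56 in the members of Tumor 1, where most UMIs were of Car4. In the Tumor 2 Whole Tumor array 3 it reached 83.0, carried by 2 members of 12559 and 6047 UMIs that had no Csf3r UMI, 115 and 76 UMIs of Chi3l3, a lectin secreted by alveolar macrophages, and 79 and 124 UMIs of Lyz2, the lysozyme of macrophages and other myeloid cells. These 2 members therefore went against the label.

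Summed over all members, which are mostly of Tumor 1, lists for other cells were low. T and NK cell genes summed to 0.0261, B cell genes to 0.0104, fibroblast genes to 0.0417, endothelial genes to 0.292, epithelial genes to 0.662 and dendritic cell genes to 0.172 per 10000 UMIs. The Tumor 2 Border members stood apart by the dendritic list, at 3.94, near the 4.24 of all other barcodes of that library. The epithelial list stood at 2.89 against 8.96 there. In Tumor 2 Whole Tumor array 3 it stood at 3.45 in members against 8.87. The mast cell and basophil list, at 0.453, consisted chiefly of 85 UMIs of Kit, and its defining genes Cpa3, Mcpt4 and Tpsb2 were at 0. The macrophage and monocyte list was higher and uneven, at 5.88 in the Tumor 1 Border members and 16.3, 8.63 and 18.5 in the arrays. Its strictest markers were near 0, with 4 UMIs of Mertk and 0 of Ly6c2 in all members, beside 1018 of Lyz2 and 375 of Csf1r.

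In Tumor 1 the members were frequent. They made up 36.1% of the Border barcodes (224 of 620, exact Clopper-Pearson 95% interval 32.3 to 40.1%) and 17.6%, 32.1% and 21.3% of the barcodes in arrays 1, 2 and 3, a mean of 23.6% ± 7.52 (SD, n = 3 technical arrays). The Border share lay 12.5 percentage points above that mean and above every array, although its interval overlapped that of array 2 (28.3 to 36.1%). In Tumor 2 they were rare, with 2.77% in the Border (14 of 506, 1.52 to 4.60%) and 1.22%, 0.543% and 1.46% in the arrays, a mean of 1.08% ± 0.476 (SD, n = 3). Here the Border lay 1.69 percentage points above the mean, but its share was within the interval of array 1 (0.333 to 3.09%), and its own interval overlapped those of all 3 arrays. The Whole Tumor arrays of the 2 tumors did not overlap, and a two-sided exact permutation test gave p = 0.1, the smallest that 3 against 3 arrays allow. Barcodes with at least 1000 UMIs were also thinned to 1000 each, and shallower ones were left out. This kept 424 of the 620 Border barcodes of Tumor 1 and 286, 519 and 268 barcodes of its arrays. In Tumor 2 it kept 387 Border barcodes and 217, 101 and 507 barcodes of the arrays. Among these deeper barcodes the shares were 29.5% in the Border and 16.1% ± 2.02 in the arrays of Tumor 1 and 2.07% and 0.900% ± 0.102 in Tumor 2. Intervals cover counting error only.

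Among neutrophils alone, the Border share of Tumor 1 lay within the range of its arrays. Of barcodes with at least 2 neutrophil UMIs and no C1q UMI, members made up 57.0% in the Border of Tumor 1 (of 393) and 54.1%, 62.4% and 57.1% in the arrays (57.9% ± 4.18, SD, n = 3). The tumors still lay apart on this scale, with 14.4% in the Border and 4.17%, 1.63% and 3.86% in the arrays of Tumor 2. R>T barcodes numbered 195 in Tumor 1 and 481 in Tumor 2, and 268 barcodes had equal sums of both kinds.

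**Figure D2:**
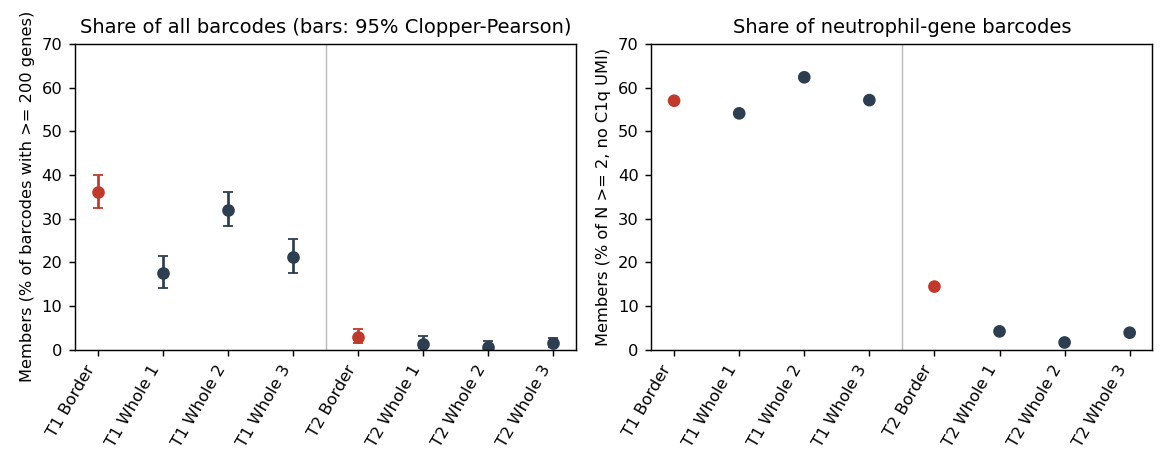
Share of Siglec-F type neutrophils among barcodes with at least 200 genes (percent, vertical axis) in each of the 8 libraries (horizontal axis, red for Border), with exact 95% intervals as bars (left panel), and their share among barcodes with at least 2 neutrophil UMIs and no C1q UMI (right panel). The Border library of Tumor 1 stands at 36.1% and its arrays at 17.6 to 32.1%, whereas all Tumor 2 libraries lie at or below 2.77%.

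Set beside the R>T barcodes, members carried more Usp24, Dtx4 and Fam167a and less Osm, Fosb, Cd93 and Slpi. The rule sorted these same barcodes on 19 of their genes, and other genes can go along with those, so the following differences are a description without a test. A gene was counted if its pooled CPM + 10 differed by at least 4-fold with the same direction in the 4 Tumor 1 libraries, the libraries that held at least 20 barcodes of both kinds. Of 5913 genes with at least 50 UMIs, 15 (0.254%) were higher in members and 28 (0.474%) were lower. Both counts were smaller on CPM + 50, and the count of higher genes was far larger on CPM + 1. Pooled R>T barcodes came mostly from Tumor 2 and pooled members from Tumor 1. Within Tumor 1 alone 4 genes (0.0676%) were higher and 14 (0.237%) lower, and of the 43 genes of either direction (0.727%) 13 were past 4-fold in both. 

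Outside the rule, Usp24, a deubiquitinase, had 439 CPM in the members and 72.8 CPM in R>T barcodes, a log2 difference of 2.44 pooled and 1.49 in Tumor 1. Dtx4, a ubiquitin ligase of the Notch pathway, was more abundant, at 784 CPM against 150 CPM (2.31, and 1.31 in Tumor 1). By library, Dtx4 had 692 CPM in the Border members of Tumor 1 and 837, 932 and 705 CPM in the arrays, against 232 and 424, 406 and 202 CPM in R>T barcodes, so the kinds did not overlap. Fam167a, at 120 CPM against 15.2 CPM (2.36, and 2.08 in Tumor 1), and 1810011H11Rik, at 64.6 CPM against 4.63 CPM (2.35, and 2.09), had the largest differences within Tumor 1 of the genes given here. Reps2, an endocytosis adaptor, had 91.7 CPM against 10.6 CPM, and Adamdec1, a metalloprotease-like protein of macrophages and dendritic cells, had 234 CPM against 39.0 CPM, with smaller log2 differences in Tumor 1 (1.89 and 1.24) than pooled (2.30 and 2.31). The rest were enzymes, with Ddt at 94.8 CPM against 12.6 CPM, Gstt2, a glutathione transferase, at 77.6 CPM against 9.93 CPM, and Acot2, a mitochondrial thioesterase, at 97.4 CPM against 14.6 CPM. Within Tumor 1 these were 99.2 against 33.6 CPM for Ddt, 80.1 against 27.7 CPM for Gstt2 and 101.9 against 33.6 CPM for Acot2, none past 4-fold.

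Of the 10 genes with the largest deficit, Slpi, the secretory inhibitor of leukocyte protease, was the one whose difference was as large within Tumor 1 (log2 difference -2.89) as pooled (-2.84). It had 170 CPM in the Border members of Tumor 1 and 66.4, 88.4 and 89.0 CPM in the arrays, against 1212 CPM and 415, 768 and 1120 CPM in R>T barcodes. Osm, the cytokine oncostatin M, had 36.5 CPM in all members and 582 CPM in all R>T barcodes (-3.67, and -2.25 in Tumor 1). Within Tumor 1 its members held 17.7 to 49.96 CPM and the R>T barcodes 67.5 to 269 CPM, again without overlap. Fosb, an immediate early transcription factor, stood at 22.4 CPM against 400.4 CPM (-3.66, and -1.97), and Cd93, a receptor of early myeloid cells, at 33.9 CPM against 543 CPM (-3.65, and -1.93). Tlr2, the receptor for bacterial lipoproteins, stood at 27.6 CPM against 275 CPM (-2.92, and -1.51), and Adam8, a membrane protease, at 124 CPM against 1003 CPM (-2.92, and -1.44). The others were Cpne2 at 22.9 CPM against 277 CPM, Vps37b, a part of the endosomal sorting complex, at 95.3 CPM against 766 CPM, Tgfbi, a matrix protein, at 24.0 CPM against 222 CPM, and 1100001G20Rik at 12.0 CPM against 142 CPM. Of these Cpne2 stayed past 4-fold within Tumor 1 (-2.34), while Vps37b (-1.63), Tgfbi (-1.50) and 1100001G20Rik (-1.21) did not.

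**Figure D3:**
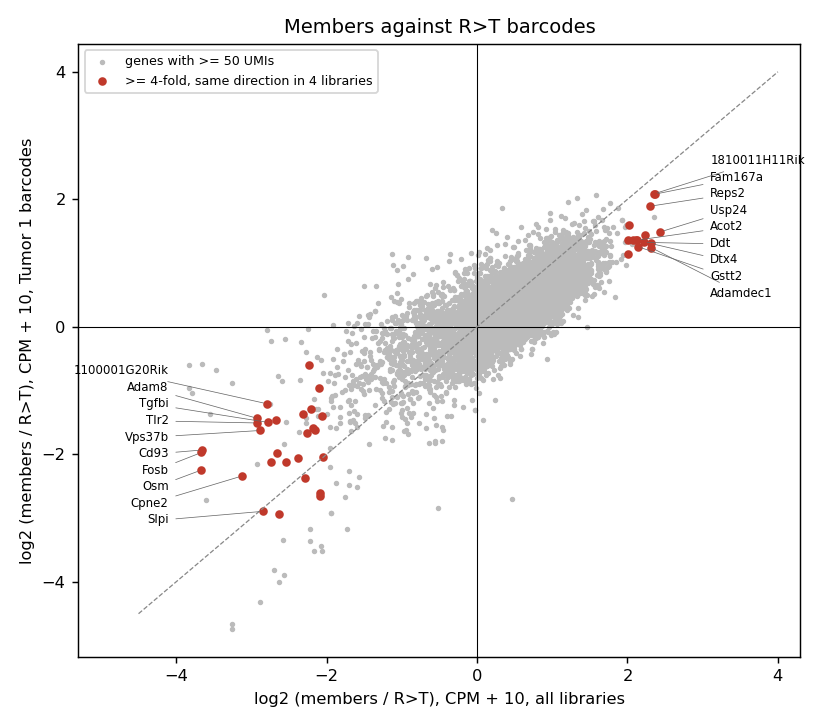
Log2 difference between members and R>T barcodes on CPM + 10, over all libraries (horizontal axis) and over Tumor 1 barcodes alone (vertical axis), with 1 point per gene and the 43 counted genes in red. Most counted genes lie nearer to 0 on the vertical axis, as Osm does at -3.67 and -2.25, whereas Slpi lies on the diagonal at -2.84 and -2.89.

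The counted genes that belong to the fixed lists are given here, beside 0.727% of all genes (0.254% higher and 0.474% lower). Of 5 ectonucleotidase and purine genes, Ampd3, an AMP deaminase, was counted as higher, with 243 CPM in members against 52.9 CPM, but within Tumor 1 it had 250 CPM against 90.9 CPM and was not past 4-fold. Among 19 cytokine genes Osm was lower, also within Tumor 1, and none higher (median log2 difference -0.09, and -0.44 in Tumor 1). Among 25 early response genes Fosb was lower (median -0.83, and -0.38 in Tumor 1), though not past 4-fold within Tumor 1. None was counted of 12 granule genes (median -0.65 pooled and -0.58 in Tumor 1), 17 interferon-stimulated genes (-0.86 and -0.21), 26 NF-kB genes (-0.45 and -0.37) or 23 survival genes (0.33 and 0.17). The same held for 29 hypoxia and glycolysis genes and 29 lysosome genes, whose medians of 0.33 and 0.32 turned to -0.14 and -0.08 in Tumor 1. The median over all genes was 0.52 pooled and 0.34 in Tumor 1. Of 8 MHC class II genes H2-Aa and H2-Ab1 were lower, and H2-Aa alone within Tumor 1. Gpr35 (1 of 10 lipid and metabolite receptors) was lower both pooled and within Tumor 1, and Tlr2 (1 of 26 neutrophil receptors) and Trem3 (1 of 17 Siglec and paired receptors) were lower pooled only.

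The most abundant transcripts of the lists were found in both members and R>T barcodes, and several pooled differences were smaller or turned within Tumor 1. Fth1, the ferritin heavy chain, had 23790 CPM in members and 29070 CPM in R>T barcodes (23720 and 33050 CPM in Tumor 1). Ccl3, a chemokine for monocytes and lymphocytes, had 4311 and 4341 CPM (4355 and 5904 CPM in Tumor 1). Il1b had 4957 CPM in members and 13360 CPM in R>T barcodes, but 4861 and 6712 CPM within Tumor 1. Cxcl2, the main neutrophil-attracting chemokine of the mouse, had 9301 and 16970 CPM, and 9377 and 16230 CPM in Tumor 1, so its order held. Il1rn, the natural antagonist of interleukin-1, had 4129 CPM in members and 2849 CPM in R>T barcodes, an order that turned in Tumor 1 with 4227 and 4422 CPM. Cd274, which encodes PD-L1, turned likewise, from 1556 and 1468 CPM to 1596 and 2374 CPM in Tumor 1. Plin2, the coat protein of lipid droplets, was higher in members on both counts, with 3508 and 2392 CPM pooled and 3589 and 2840 CPM in Tumor 1. Csf2rb, the common receptor chain for GM-CSF, interleukin-3 and interleukin-5, had 1813 and 919 CPM, but the Tumor 1 libraries ran from 1223 to 2214 CPM in members and from 884 to 2143 CPM in R>T barcodes, which overlapped.

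Against all other barcodes, which hold macrophages, lymphocytes, tumor epithelium and the remaining neutrophils, 17 of 10381 genes (0.164%) were at least 4-fold higher in members and 301 (2.9%) lower. Both counts were far larger on CPM + 1 and smaller on CPM + 50. The counts within Tumor 1 alone were 7 (0.0674%) and 337 (3.25%), and 229 of the 318 genes (3.06%) were past 4-fold in both. Mmp9 (chr2:164940326-164955850), the gelatinase of neutrophil granules, had 1115 CPM in members and 172 CPM in the rest (log2 difference 2.63 pooled and 2.63 in Tumor 1). It was also above the R>T barcodes in every Tumor 1 library, with 872 CPM in the Border members and 1603, 1141 and 1499 CPM in the arrays against 342 CPM and 521, 514 and 403 CPM. Prss2, a trypsinogen, had 129 CPM against 8.65 CPM in the rest. Of 24 cytokine genes 3 were higher (Tnf, Il1a and Csf1) and 4 lower (Ccl5, Cxcl16, Il12b and Osm), with a median of -0.25, and within Tumor 1 alone 1 was higher and 2 lower. Of 24 angiogenesis and matrix genes none was higher and 6 were lower. Tnf, the gene of tumor necrosis factor, had 1600 CPM against 268 CPM and Il1a, of interleukin-1 alpha, 1701 CPM against 369 CPM. Acsl1, which activates long-chain fatty acids, had 963 CPM against 159 CPM. Clec5a and Cd177, both surface proteins of neutrophils, had 322 CPM against 56.2 CPM and 241 CPM against 48.3 CPM, and Camkk1, a calcium-dependent kinase, had 163 CPM against 23.5 CPM. The lowest genes included markers of other cells. Apoe, a lipoprotein of macrophages, had 84.9 CPM against 5477 CPM (-5.85), and the MHC class II genes H2-Eb1 and H2-Ab1 had 51.6 CPM against 1513 CPM and 88.6 CPM against 2289 CPM. Of 11 MHC class II genes 6 were lower (median -2.34, against -0.06 over all genes), and 4 within Tumor 1 (median -1.23, against -0.11), where H2-Eb1 differed 11.9-fold in place of 24.7-fold and H2-Ab1 12.2-fold in place of 23.3-fold. Of the higher genes, Prss2, Mmp9, Dtx4, Tnf and Clec5a stayed past 4-fold within Tumor 1, and Acsl1 (3.57-fold), Camkk1 (3.44-fold), Cd177 (3.40-fold), Il1a (2.93-fold) and Ddt (2.85-fold) did not.

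The question the sorted libraries pose is whether cells of the Border differ from cells of the Whole Tumor. The members of Tumor 1, with 660477 UMIs in the Border and 225840, 655844 and 292186 UMIs in the arrays, allowed this to be asked gene by gene. Border members carried more transcripts of Tnf, Cxcl2, Ccl3, Ccl4 and Il1a, of 10 of 24 early response genes tested and of 7 of 25 NF-kB genes, and fewer of a smaller set that included Fn1 and Apoe. Of 4689 genes tested in edgeR (quasi-likelihood, p adjusted over all of them after Benjamini and Hochberg), 130 passed 0.05 (2.77%), of which 110 were higher (2.35%) and 20 lower (0.427%) in the Border. The balance between directions depended on the scaling. With total UMIs (CPM) in place of TMM, which moved the median gene by 0.46 on the log2 scale, 271 genes passed (5.78%), 68 higher (1.45%) and 203 lower (4.33%). All 110 genes remained higher on the CPM scale, 67 of them past the threshold, and all 110 were above each of the 3 arrays in CPM, as were 12.6% of all genes tested.

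These counts rest on few libraries. In the Tumor 1 libraries fitted alone 463 of 6594 genes passed (7.02%; 377 higher, 5.72%, and 86 lower, 1.3%), and all 130 genes were among them. DESeq2 called 44, among them 28 of the 110 and 3 of the 20. Leaving out the Tumor 1 arrays 1, 2 or 3 left 14 of 1863, 17 of 1849 or 15 of 1857 genes tested. Leaving out the Tumor 2 arrays 1, 2 or 3 left 231 of 5656, 204 of 5800 or 276 of 5501. The number of genes tested thus moved with the array left out, and the counts alone cannot be compared. Of all UMIs in Border members, 23.6% fell on their 10 leading genes, against 17.1 to 18.5% in the arrays. Border members had a median of 2560.0 UMIs and 883 genes, against 2515 to 2949 UMIs and 1151 to 1164.5 genes, with 3.01% mitochondrial UMIs against 3.56 to 3.91%. Members of the 2 regions also met the rule through partly different genes. Il23a was found in 46.4% of Border and 17.2% of Whole Tumor members, Gpr84 in 39.3% and 29.9%, and Siglec5, the other way, in 25.4% and 50.1%. The part of these differences, and of this selection, in the result was not tested.

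The cytokine Tnf (chr17:35199367-35202007) had 4005 CPM in the Border members and 403, 249 and 359 CPM in those of the 3 arrays, a log2 change of 4.00 ± 0.58 (SE; edgeR adjusted p = 1.2e-08). The lowest fold against any array was thus that against array 1. Cxcl2 had 19850 CPM against 3786, 3028 and 4271 CPM (2.85 ± 0.88, edgeR adjusted p = 0.044). Ccl4, a chemokine for monocytes and T cells, had 1896 CPM against 399, 311 and 267 CPM (2.97 ± 0.45, edgeR adjusted p = 4.3e-08). Ccl3 and Il1a followed the same pattern. Ccl3 had 8816 CPM against 1780, 1949 and 1660 CPM (2.72 ± 0.76, edgeR adjusted p = 0.021), and Il1a had 3553 CPM against 678, 692 and 962 CPM (2.62 ± 0.57, edgeR adjusted p = 6.9e-04). Of 16 cytokine genes tested, 8 rose and none fell, namely Ccl3, Ccl4, Ccl6, Cxcl1, Cxcl2, Cxcl3, Il1a and Tnf. The median of the list was 1.95 (1.48 on the CPM scale), against -0.06 over all genes. With the Tumor 1 libraries alone 11 of 18 passed, all higher, Il1b, Il1rn and Osm among them, while DESeq2 did not call Cxcl2 (DESeq2 adjusted p = 0.25) or Ccl3 (0.39). In the fit of all libraries Il1b did not pass, with 6059 CPM in the Border and 4083, 3961 and 4774 CPM in the arrays (0.93, edgeR adjusted p = 0.79, and edgeR adjusted p = 6.3e-04 in Tumor 1 alone). Nor did Il1rn (1.21, edgeR adjusted p = 0.62, and 1.29 with adjusted p = 2.6e-06 in Tumor 1 alone). Csf1 passed in neither fit (0.25, edgeR adjusted p = 0.93, and 0.33 with adjusted p = 0.53 in Tumor 1 alone).

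More Border members had UMIs of these cytokines. A Tnf UMI was found in 73.2% of the 224 Border members and 24.5% of the 355 Whole Tumor members of Tumor 1, and the 10 members with most Tnf held 28.0% of its UMIs in the Border and 55.2% in the Whole Tumor. Cxcl2 was found in 97.8% and 75.8%, with a median of 43 and 4 UMIs per member. Ccl3 was found in 98.7% and 68.2%, with medians of 22 and 2 UMIs. Detection rose for the less abundant Ccl4 as well, from 25.9% to 67.0%, and for Il1a from 57.2% to 82.6%. With members of at least 1000 UMIs thinned to 1000 each, Tnf was found in 60.9% and 13.8%, with 9 and 7 shallower members left out. Of the 43 lymphoid barcodes of Tumor 1, 4.65% had a UMI of Tnf, 6.98% of Cxcl2, 9.30% of Ccl3, 2.33% of Ccl4 and 4.65% of Il1a, all below both groups of members.

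Of 25 NF-kB targets and feedback genes tested, 7 rose and none fell. Nfkbiz (chr16:55811375-55838954), an atypical inhibitor that also co-activates secondary response genes, had 4073 CPM in the Border members and 695, 557 and 507 CPM in the arrays (3.22 ± 0.62, edgeR adjusted p = 5.4e-05). Tnfaip3, the ubiquitin-editing enzyme A20 that ends NF-kB activation, had 4065 CPM against 970, 709 and 698 CPM (2.79 ± 0.63, edgeR adjusted p = 0.0011). In both genes the arrays lay close together and far below the Border. Nfkbia, the classical inhibitor of NF-kB, had 5278 CPM against 1439, 1141 and 1728 CPM (2.30, edgeR adjusted p = 0.042, DESeq2 adjusted p = 0.32 and so not called), and Ier3 had 2120 CPM against 425, 506 and 531 CPM (2.54). The 7 were Ier3, Marcksl1, Nfkbia, Nfkbid, Nfkbiz, Tnfaip3 and Zfp36, in a list with a median of 0.64 and, on the CPM scale, 0.18 with 6 past the threshold. Nlrp3, the sensor of an inflammasome, had 1797 CPM against 297, 357 and 335 CPM (2.87 ± 0.50, edgeR adjusted p = 4.3e-06). Irg1, the enzyme that makes itaconate, had 2310 CPM against 195, 335 and 489 CPM (3.18 ± 0.52, edgeR adjusted p = 6.0e-07).

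Sequences are shown for the risen cytokine and NF-kB genes whose proximal promoter holds a classical NF-kB motif, since these genes moved together. The motif searched was GGG followed after any 2 bases by TTTCC, on both strands, in the 250 bases before the start of each gene in RefSeq's annotation of GRCm38.p6. It was found in 464 of 32851 such windows (1.41%), in 3 of the 7 risen cytokine genes with a RefSeq window (of 8) and in 2 of the 6 risen NF-kB genes with one (of 7). The 1.41% is a share of windows, whereas the other counts are of genes. No share was taken for the list genes that did not rise, so the counts cannot show whether the motif goes with the rise. A match describes the sequence and is not a measured binding site. Each line gives 100 bases that end near the start of the gene, 5′ to 3′ on the strand of the gene, with the motif in capitals.
Cxcl2, chr5:90903776-90903875, plus strand: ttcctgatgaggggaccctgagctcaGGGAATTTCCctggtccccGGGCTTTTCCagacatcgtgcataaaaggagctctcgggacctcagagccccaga
Cxcl1, chr5:90891129-90891228, plus strand: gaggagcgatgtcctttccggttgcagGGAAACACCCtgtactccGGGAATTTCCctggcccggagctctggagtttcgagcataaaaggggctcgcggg
Cxcl3, chr5:90785983-90786082, plus strand: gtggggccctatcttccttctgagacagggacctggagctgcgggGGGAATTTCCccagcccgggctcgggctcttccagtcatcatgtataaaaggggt
Nfkbia, chr12:55492648-55492747, minus strand: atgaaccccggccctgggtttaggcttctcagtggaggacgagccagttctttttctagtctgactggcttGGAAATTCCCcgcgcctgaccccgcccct
Tnfaip3, chr10:19015411-19015510, minus strand: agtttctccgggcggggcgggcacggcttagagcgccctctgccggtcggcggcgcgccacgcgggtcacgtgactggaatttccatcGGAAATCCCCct
In Cxcl1, Cxcl2 and Cxcl3, which lie together on chromosome 5, the motif nearest to the start begins 71, 78 and 73 bases before it, and the stretches of Cxcl1 and Cxcl2 each hold 2 motifs. In Nfkbia and Tnfaip3 it begins 29 and 12 bases before the start. Cxcl1 and Cxcl3, whose motif nearest to the start has the same letters as the more distal one of Cxcl2, rose by 1.89 and 2.14 on the log2 scale in the Border members.

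Early response genes are transcribed within minutes of a stimulus without new protein synthesis. Of 24 tested 10 rose and none fell (Atf3, Btg2, Dusp1, Dusp2, Egr1, Ier5, Klf2, Maff, Nr4a1 and Nr4a3), with a median of 1.35 (0.88 on the CPM scale, with 8 past the threshold). Dusp1, a phosphatase that switches off MAP kinases, had 1914 CPM in the Border members against 328, 413 and 377 CPM (2.78 ± 0.49, edgeR adjusted p = 4.4e-06). Egr1, a zinc finger transcription factor, had 2557 CPM against 797, 619 and 1082 CPM (2.04, edgeR adjusted p = 0.023). The transcription factor Klf2 was lower in abundance, with 316 CPM against 164, 203 and 144 CPM (1.30, edgeR adjusted p = 0.020). Jun did not pass (1.36, edgeR adjusted p = 0.51) but did with the Tumor 1 libraries alone (1.44, edgeR adjusted p = 1.7e-07), where 19 of 23 genes of the list were called higher. DESeq2 called Dusp1 and Egr1 but not Klf2 (DESeq2 adjusted p = 0.27). Tob1, an antiproliferative protein outside the list, had 267 CPM against 17.7, 53.4 and 54.8 CPM (2.98 ± 0.44, edgeR adjusted p = 2.0e-08), and Olr1, the receptor for oxidized low-density lipoprotein, had 215 CPM against 53.1, 22.9 and 44.5 CPM (2.97 ± 0.46, edgeR adjusted p = 6.8e-08). DESeq2 called Tob1 but not Olr1 (DESeq2 adjusted p = 0.31).

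The list of angiogenesis and matrix genes moved in both directions. Ptgs2, the inducible cyclooxygenase, had 919 CPM in the Border members against 230, 297 and 243 CPM (2.25, edgeR adjusted p = 6.8e-05), and Plau, the urokinase, had 372 CPM against 142, 148 and 89.0 CPM (1.97, edgeR adjusted p = 1.8e-05). Its receptor Plaur rose with it (1.87). In all 5 of 19 rose, Plau, Plaur, Ptgs2 and Spp1 among them, and 2 fell, Mmp12 among them, with a median of 0.82 (0.35 on the CPM scale, with 3 higher and 2 lower). With the Tumor 1 libraries alone 11 were higher and 2 lower, and DESeq2 did not call Ptgs2 (DESeq2 adjusted p = 0.14) or Plau (0.38). Vegfa, the main endothelial growth factor, did not pass (0.82, edgeR adjusted p = 0.56) except in Tumor 1 alone (0.90, edgeR adjusted p = 0.0053), and Mmp9 did not pass, with 872 CPM against 1603, 1141 and 1499 CPM (-0.27, edgeR adjusted p = 0.93).

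Smaller parts of the other lists passed. Among 17 survival genes Bcl2a1b, Nlrp3 and Pmaip1 rose (median 0.62), and among 26 hypoxia and glycolysis genes Ddit4 and Egln3 (median 0.39). Ddit4, a stress-induced brake on mTOR, had 96.9 CPM against 8.86, 33.5 and 24.0 CPM (2.38, edgeR adjusted p = 0.0031), and Egln3, an oxygen-sensing hydroxylase, had 1222 CPM against 447, 688 and 537 CPM (1.55, edgeR adjusted p = 0.032; DESeq2 adjusted p = 0.68). With total UMIs in place of TMM, 1 of the survival genes and both hypoxia genes passed as higher, with list medians of 0.16 and -0.08. Single members rose in the lists of receptors (Icam1, 1 of 25) and lysosome (Atp6v0d2, 1 of 30), near the 2.35% of all genes tested. Irf1 (1 of 11 interferon-stimulated genes) and Mki67 (1 of 4 cell cycle genes) also rose. These lists were too short for a share to be read from a single call. On the CPM scale Icam1 alone of Icam1, Atp6v0d2, Irf1 and Mki67 kept its call, and 3 lysosome genes passed as lower. None passed among 14 heat shock genes (median 0.29, and -0.17 on the CPM scale), 9 granule genes (median -0.09), 9 MHC class I genes, 14 Siglec and paired receptor genes, 8 lipid receptor genes and 4 ectonucleotidase genes. Of these 58 genes DESeq2 called none, 6 had an unadjusted edgeR p below 0.05, and 11 passed with the Tumor 1 libraries alone, among them the heat shock genes Dnaja1, Hspa5 and Hsph1. With CPM scaling Cybb, Cd300ld and Pilra passed as lower. S100a9 was at 3878 CPM in the Border and 3737, 3135 and 4867 CPM in the arrays (0.41, edgeR adjusted p = 0.93). Cd274 had 2422 CPM against 1027, 1230 and 986 CPM without passing (1.59, edgeR adjusted p = 0.15), but passed in Tumor 1 alone (1.67, edgeR adjusted p = 2.3e-10) and with DESeq2 (1.37, DESeq2 adjusted p = 0.044).

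**Figure D4:**
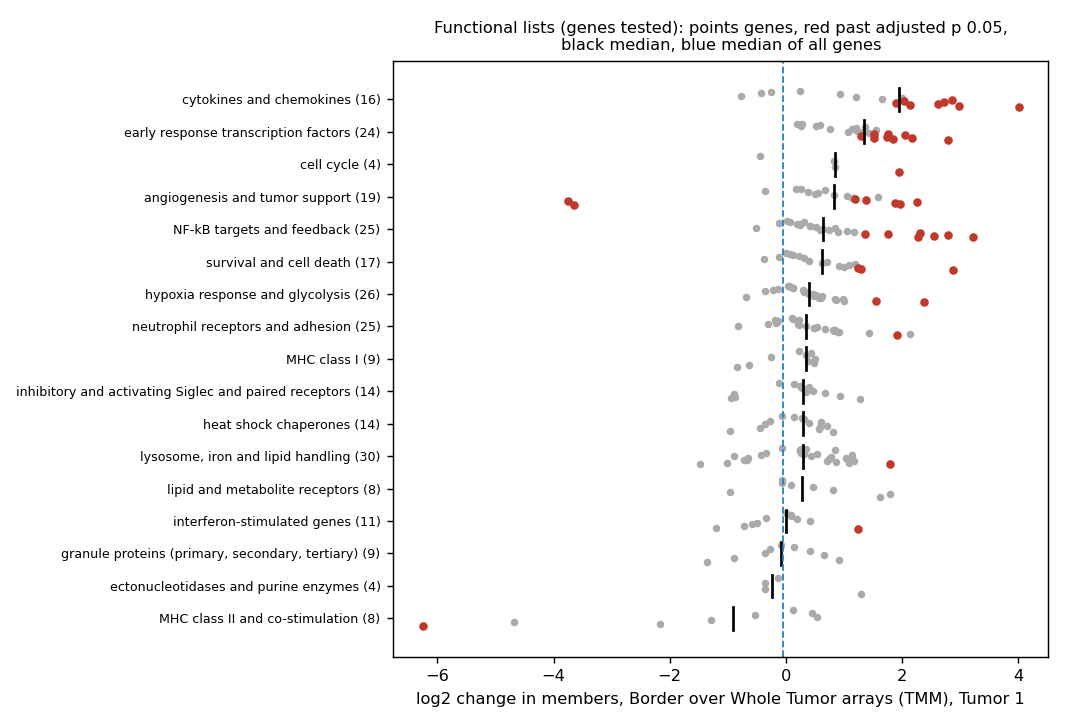
Log2 change between Border and Whole Tumor in the Tumor 1 members (edgeR, TMM, horizontal axis) for the genes of each fixed list (vertical axis), with genes past an adjusted p of 0.05 marked. Of 16 cytokine genes 8 lie to the right past the threshold around a list median of 1.95, while no heat shock or granule gene passed.

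The genes lower in the Border members included some whose call rested on a single array. Fn1 (chr1:71585473-71653280), fibronectin, had 18.2 CPM against 438, 19.8 and 130 CPM (-2.85 ± 0.61, edgeR adjusted p = 4.2e-04), and Apoe 21.2 CPM against 407, 48.8 and 47.9 CPM (-2.40 ± 0.59, edgeR adjusted p = 0.0044). Array 1 was highest in both, and DESeq2 called neither (DESeq2 adjusted p = 0.65 and 0.61). Mfge8, which bridges apoptotic cells to phagocytes, had 1.51 CPM against 204, 4.57 and 0 CPM, and Mmp12, the macrophage elastase, 3.03 CPM against 217, 0 and 0 CPM, so both calls rested on array 1. Zfp260, a zinc finger protein, had 3.03 CPM against 261, 146 and 6.85 CPM (-4.87 ± 0.82, edgeR adjusted p = 1.3e-06). Cxcl14, a chemokine, had 6.06 CPM against 137, 36.6 and 44.5 CPM (-2.95), and Alox5ap, which presents arachidonate to 5-lipoxygenase, 25.7 CPM against 159, 57.9 and 240 CPM (-2.06). B4galt6 and Fam129a fell by 3.06 and 2.66 on the log2 scale. DESeq2 called none of these 9 lower genes, Zfp260 among them (DESeq2 adjusted p = 0.18), and gave no adjusted p for 2. Of 8 MHC class II genes H2-Aa fell, with no UMI in the Border and 164, 1.53 and 6.85 CPM in the arrays. Over the arrays it had 34.1 CPM, at least 7.50-fold above a floor of 3 counts over the Border members. This bound rested on array 1. Of the 20 genes, 18 were below every array in CPM, as were 55.4% of all genes tested. The macrophage and monocyte list moved with them, at 5.88 per 10000 UMIs in the Border members and 16.3, 8.63 and 18.5 in the arrays, with the C1q genes at 0 by the rule, and its part in these calls was not tested.

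**Figure D5:**
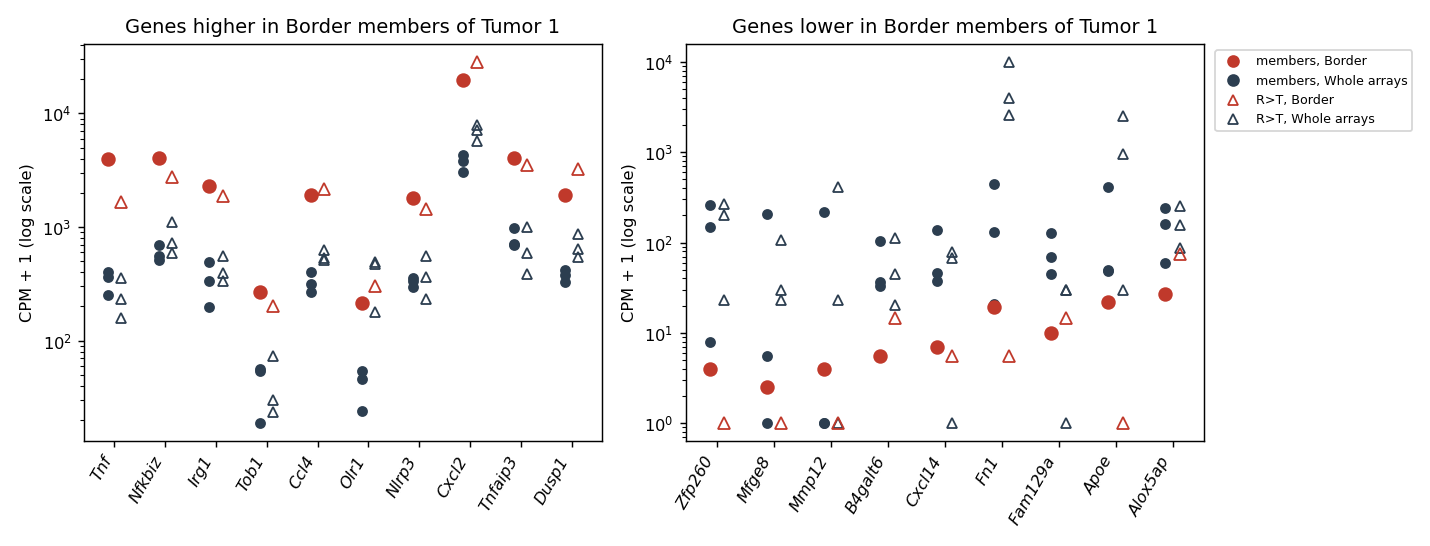
CPM + 1 (log scale, vertical axis) of genes with the largest rise (left panel) and fall (right panel) in Border members of Tumor 1, with filled circles for members and open triangles for R>T barcodes, red for the Border library and dark for the 3 Whole Tumor arrays. Tnf in members stands at 4005 CPM in the Border and at 249 to 403 CPM in the arrays, while Fn1 in R>T barcodes stands at 2575 to 9927 CPM in the arrays and 4.56 CPM in the Border.

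Members and R>T barcodes from the same libraries allowed a test of whether the Border effect differed between them. The R>T barcodes of the arrays also held transcripts of other cells, as given below. No difference passed for the inflammatory genes, with wide intervals. Tnf in R>T barcodes of Tumor 1 was at 1672 CPM in the Border and 231, 355 and 157 CPM in the arrays, and the Border effect differed from that of the members by 0.60 ± 0.75 (SE, log2; 95% interval -0.87 to 2.08; edgeR adjusted p = 1.0). The difference was 0.68 ± 0.79 for Nfkbiz (-0.87 to 2.22), 0.10 ± 0.87 for Cxcl2 (-1.60 to 1.80) and -0.53 ± 0.81 for Ccl3 (-2.12 to 1.06), each with an edgeR adjusted p of 1.0. The intervals are normal approximations from the SE and, with so few arrays, may be too narrow. A missed threshold with intervals this wide does not show that the kinds responded alike. Over 5642 genes, 7 passed (0.124%), all with the Border effect more positive in the members and none more negative (0.0%). With total UMIs in place of TMM 11 passed (0.195%), all in the same direction. DESeq2 called none, and 251 genes had an unadjusted edgeR p below 0.05. With the Tumor 1 libraries alone 14 of 5364 passed (0.261%), and without Tumor 1 Whole Tumor array 2 a sole gene passed.

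The 4 genes described here were lower in R>T barcodes of the Border than in those of each Whole Tumor array. Grn, progranulin, had 168 CPM against 177, 235 and 298 CPM in members and 4.56 CPM against 328, 355 and 426 CPM in R>T barcodes (5.47 ± 1.21, edgeR adjusted p = 0.0091). Ecm1, an extracellular matrix protein, had 71.2 CPM against 48.7, 80.8 and 71.9 CPM in members and 27.3 CPM against 637, 319 and 515 CPM (3.84 ± 0.95, edgeR adjusted p = 0.044). Fn1 was lower in the Border in both kinds, and in R>T barcodes it had 4.56 CPM against 2575, 3961 and 9927 CPM (7.05 ± 1.38, edgeR adjusted p = 5.7e-04). Saa3, an acute phase protein, had 96.9 CPM against 257, 13.7 and 37.6 CPM in members and 77.4 CPM against 2131, 434 and 2151 CPM in R>T barcodes (4.43 ± 0.84, edgeR adjusted p = 3.7e-04). Edn1 also passed, with under 50 UMIs in the members. The macrophage and monocyte list stood in R>T barcodes at 4.60 per 10000 UMIs in the Border and 55.2, 15.0 and 45.0 in the arrays. In all barcodes other than members it stood at 5.71 in the Border and 63.7, 66.2 and 73.1 in the arrays. The epithelial list stood at 0.182 in the Border R>T barcodes and at 3.76, 18.1 and 0.672 in those of the arrays. By these lists the R>T barcodes of the arrays were a mixed group and not neutrophils alone. The part of either list in these calls was not tested.

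The Tumor 2 members gave far less data. Their sums held 38090 UMIs from 14 barcodes in the Border and 9539, 2709 and 34814 UMIs from 4, 2 and 9 barcodes in the arrays. Of 4689 genes 30 passed (0.64%), 21 higher (0.448%) and 9 lower (0.192%) in the Border. With total UMIs in place of TMM 54 passed (1.15%), 28 higher (0.597%) and 26 lower (0.554%). Slc7a11, the cystine transporter, had 1418 CPM in the Border against 524, 0 and 201 CPM (2.70), and the MHC class II gene H2-Ab1 had 2074 CPM against 0, 0 and 661 CPM (2.40). The dendritic cell list stood at 3.94 per 10000 UMIs in these Border members, from 13 UMIs of Ccr7 and 2 of Cd209a with its other genes at 0, and at 0 in all 3 arrays, and its part in the MHC class II difference was not tested. DESeq2 called Slc7a11 (DESeq2 adjusted p = 0.042) and not H2-Ab1 (0.49), and 23 genes in all, of which 13 were among the 30. Of 16 cytokine genes Ccl4 and Cxcl16 passed as higher in the Border, and of 24 early response genes Nr4a3, beside 0.448% of all genes. Ccl4 had 630 CPM against 0, 369 and 0 CPM, and Cxcl16 420 CPM with no UMI in the arrays. Tnf did not pass in Tumor 2 (1.13 ± 0.77, edgeR adjusted p = 0.52). The lower genes Chi3l3, with no UMI in the Border and 0, 0 and 5745 CPM in the arrays, and Lyz2, with 52.5 CPM against 524, 0 and 5946 CPM, rested on array 3, whose members included the 2 barcodes with alveolar macrophage transcripts. Without Tumor 2 Whole Tumor array 3, 22 of 5501 genes tested passed, and without arrays 1 or 2, 79 of 5656 or 59 of 5800. Leaving out a Tumor 1 array, 1, 2 or 3, left 15 of 1863, 12 of 1849 or 11 of 1857.

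Tested directly, the Border effect in members differed between the tumors at 20 genes (0.427%), 11 with a more positive effect in Tumor 2 (0.235%) and 9 with a more negative one (0.192%). With total UMIs in place of TMM there were 46 (0.981%; 27, 0.576%, and 19, 0.405%). DESeq2 called 13, of which 3 were among the 20. Tnf was not among the 20, with a difference of -2.87 ± 1.03 (SE, log2; edgeR adjusted p = 0.28). The Border effect differed between members and R>T barcodes at 19 genes in Tumor 2 (0.337%). It was more positive in the members at 16 (0.284%) and more negative at 3 (0.0532%), among them Irg1 (3.57), Egr1 (3.42) and Lyz2 (-5.66). Leaving out any of the Tumor 1 arrays left 0 genes in edgeR, with 388 to 459 at an unadjusted p below 0.05, and leaving out Tumor 2 array 3 left 3. DESeq2 called 1 gene, Egr1, and not Irg1 (DESeq2 adjusted p = 0.66) or Lyz2 (0.62). Total UMIs in place of TMM gave 9 (0.16%), of which 1 was more positive (0.0177%) and 8 more negative (0.142%), and Irg1 and Egr1 did not pass (edgeR adjusted p = 0.10 and 0.15).

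Members of the Whole Tumor arrays differed between Tumor 2 and Tumor 1 at 211 of 4689 genes (4.5%), 72 higher (1.54%) and 139 lower (2.96%) in Tumor 2. With total UMIs in place of TMM 208 passed (4.44%), 114 higher (2.43%) and 94 lower (2.0%), so the balance of directions turned with the scaling. Tumor, mouse and sex cannot be told apart here. Among the genes with a higher level, Chi3l3, Sgk1, Gdf15, Mmp19 and Atp6v0d2 had UMIs in array 3 of Tumor 2 only among its arrays, with 5745 CPM of Chi3l3, 862 of Sgk1, 919 of Gdf15, 632 of Mmp19 and 546 of Atp6v0d2 there. The 2 members with alveolar macrophage transcripts held 18606 of the 47062 member UMIs of the Tumor 2 arrays (39.5%). In that array the alveolar list stood at 83.0 per 10000 UMIs, against 5.38 to 7.56 in the Tumor 1 arrays, and the macrophage and monocyte list at 83.6 against 8.63 to 18.5, and their part in the other calls was not tested. Without that array 36 of 5501 genes tested passed in all. Other higher genes also had UMIs in array 1 or 2, whose members summed to 9539 and 2709 UMIs. Mt2 had 0, 1107 and 1350 CPM in arrays 1, 2 and 3, and Olr1 210, 0 and 661 CPM. Cd74 had 0, 1477 and 1723 CPM, and H2-Aa 0, 1477 and 661 CPM. DESeq2 called Mt2, Olr1 and Cd74 (DESeq2 adjusted p = 0.0062, 0.0080 and 0.043) but not H2-Aa (0.33). Of 8 MHC class II genes 4 were higher, and of 24 early response genes 5, beside 1.54% of all genes. Of the lower genes, 51 had no UMI in the 47062 UMIs of the Whole Tumor 2 members, a floor of 63.8 CPM at 3 counts. Xist, at 529 CPM in Tumor 1, was at least 8.30-fold lower, Slc40a1, the iron exporter ferroportin, at 274 CPM, at least 4.303-fold, and Mmp14, a membrane matrix metalloprotease, at 228 CPM, at least 3.57-fold. In the Tumor 2 Border members, which this comparison leaves out, Slc40a1 had 341 CPM and Mmp14 78.8 CPM. For the other 48 the floor gave at least 1.60-fold to 3.86-fold, so that at this depth little could be seen of their size.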

How the data were processed

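The authors demultiplexed Seq-Well reads with bcl2fastq 2.17.1.14, aligned them to mm10 with STAR 2.5.2b after the Drop-seq protocol and deposited UMI counts per gene and cell for 8 libraries (27923 genes, 4343 barcodes). Barcodes with at least 200 genes were kept. Scrublet, in scanpy 1.11.5, marked doublets, which were kept. The members and all gene lists were chosen with earlier results of these data known. UMI counts of members, and of R>T barcodes, were summed per library and tested with edgeR 4.0.16 (R 4.3.3): TMM scaling, genes kept by filterByExpr, the quasi-likelihood test, and p-values adjusted after Benjamini and Hochberg over every gene tested, with a threshold of 0.05. The fit had 4 group means over 8 libraries and 4 residual degrees of freedom. These come from technical arrays, and the sole Border library of a tumor was taken to vary like them, so p-values measure that spread only. The comparison of members with R>T barcodes used 16 sums with the library as a block. The genes of the rule were left out of all calls. Some genes and 1 allele are not reported here. Members against other barcodes were described on CPM + 10, without a test. The scripts were tested on simulated data. Named were the genes of the rule, the 10 largest changes in each direction among called genes with at least 50 UMIs, and list genes that passed or were most abundant. Alternatives were CPM scaling, DESeq2 1.42.0, no low-count filter, 500 genes per barcode, doublets left out, at least 3 tumor-type UMIs, each array left out, other pseudocounts, thinning to 1000 UMIs, other denominators and, chosen after the data were seen, Tumor 1 alone and primer-like barcodes left out. Promoters were those of RefSeq for GRCm38.p6.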

Additional observations from a re-analysis of the deposited data

Results flagged for a closer look

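The Border effect in the members (Border minus Whole Tumor, log2, edgeR with adjusted p below 0.05) differed between Tumor 2 and Tumor 1 at 19 named genes. It was more positive in Tumor 2 for Cxcl16 (9.83), Mfge8 (7.97), H2-Aa (7.66), Ahr (5.68), F5 (5.57), Osgin1 (5.19), Tbc1d15 (4.90), H2-Ab1 (4.57), Elmsan1 (4.37) and H2-Eb1 (3.62). It was more negative there for Chi3l3 (-11.97), Gdf15 (-9.83), Mt2 (-5.85), Ccl6 (-5.43), Slpi (-5.37), Atp6v0d2 (-5.36), Olr1 (-4.17), Sgk1 (-3.91) and Irf1 (-3.71). DESeq2 called 2 of the 19, Osgin1 and Tbc1d15 (DESeq2 adjusted p = 0.012 and 0.019), did not call 8, the MHC class II genes among them, and gave no adjusted p for 9. Several of these genes had no UMI on a side of the comparison, in sums of 2709 to 38090 UMIs for Tumor 2, and their fitted differences depend on the prior count and are not bounds. Among the Tumor 2 arrays, Chi3l3, Gdf15, Ccl6, Atp6v0d2 and Sgk1 had UMIs in array 3 only (5745, 919, 4998, 546 and 862 CPM), which holds the 2 members with alveolar macrophage transcripts. The MHC class II genes H2-Aa, H2-Ab1 and H2-Eb1 were more positive in Tumor 2, where the dendritic cell list stood at 3.94 per 10000 UMIs in the Border members and 0 in the arrays, against 0.106 in the Border members of Tumor 1. The part of these transcripts was not tested.

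The Border effect also differed between members and R>T barcodes of the same libraries. In Tumor 1 it was more positive in the members for Fn1 (7.05), Grn (5.47), Saa3 (4.43) and Ecm1 (3.84). In Tumor 2 it was more positive for Irg1 (3.57) and Egr1 (3.42) and more negative for Lyz2 (-5.66). The Irg1 and Egr1 calls were lost with CPM scaling (edgeR adjusted p = 0.10 and 0.15), and all calls in Tumor 2 were lost without any single Tumor 1 array.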

How the results depend on the processing

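Every test rests on 1 Border library per tumor and on technical arrays, and Tumor 2 on 29 members. Genes past the threshold for Border against Whole in Tumor 1 numbered 130, and 271 with CPM scaling, 44 by DESeq2, 463 with Tumor 1 alone and 14 to 276 with an array left out (14, 17 and 15 without arrays 1, 2 and 3 of Tumor 1, where 1849 to 1863 genes were tested). Tumor 2 had 30, with 54 by CPM scaling and 11 to 79. The difference between tumors had 20, with 46 by CPM scaling, 13 by DESeq2 (3 of them shared), 13 without a filter and 6 to 36. The difference between kinds had 7 in Tumor 1, with 11 by CPM scaling, 0 by DESeq2, 14 with Tumor 1 alone and 1 to 8, and 19 in Tumor 2, with 9 by CPM scaling, 1 by DESeq2, 2 without a filter and 0 to 25. Whole Tumor 2 against 1 had 211, with 86 by DESeq2, 132 at 3 tumor-type UMIs and 36 to 210. The array number did not pair the arrays (correlations of deviations -0.034, -0.0035 and 0.044), and a replicate block left 4 genes there. The cause was not tested, except that fewer genes were tested without a Tumor 1 array. The Border excess of the share in Tumor 1, 12.5 percentage points, was 20.7 at 500 genes, -0.88 among neutrophils (reversed) and 9.48 to 16.7 with an array left out. In Tumor 2 it was 1.69, with 1.17 thinned, 1.12 at 3 tumor-type UMIs, 11.2 among neutrophils and 1.43 to 1.88. Tumor 1 exceeded Tumor 2 by 22.6 points, with 31.4 at 500 genes, 54.7 among neutrophils and 18.4 to 25.6. The 15 genes higher than in R>T barcodes became 108 on CPM + 1, 1 on CPM + 50 and 4 in Tumor 1 alone, and the 28 lower ones 12 on CPM + 50 and 14 in Tumor 1. Against all others, 17 became 52, 5 and 7, and 301 lower ones 1317 on CPM + 1 and 42 on CPM + 50. Among named genes 760 repeats kept direction and call, 225 lost the call, and 10 reversed, all without Tumor 2 Whole Tumor array 3, where the arrays left had no UMI of these genes, so that the values are fitted against 0, are no bounds and show no turn in direction. Ranges with an array left out, that value first, were 5.71 and -5.54 for 1600029D21Rik and 7.28 and -4.08 for Cybb in the Border effect of Tumor 2. For Whole Tumor 2 against 1 they were -5.86 and 5.62 for 1600029D21Rik, -5.83 and 4.43 for Sgk1, -5.99 and 4.38 for Gdf15, -6.14 and 3.93 for Mmp19, and -6.00 and 3.64 for Atp6v0d2. For the difference between tumors they were 6.60 and -5.97 for Ccl6, 3.88 and -5.77 for Atp6v0d2, and 5.95 and -4.32 for Sgk1.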
